A study of Mus musculus with 2 samples.

Results

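Messenger RNA of 9 genes of the Lin28, Igf2bp and let-7 axis was examined in E14, a line of mouse embryonic stem cells. The 9 genes, Lin28a, Lin28b, L1td1, Trim71, Igf2bp1, Igf2bp2, Igf2bp3, Hmga1 and Hmga2, were chosen by symbol, and each matched 1 of the 43629 Ensembl gene identifiers in both deposited count tables. Poly(A) RNA of 2 libraries was sequenced. Both libraries carry the genotype label wild type, the strain label 129/Ola and the blastocyst as tissue, and no treatment is named. They differ by an age label, P33 for replicate 1 and P42 for replicate 2, which is not spelled out and is used here only as a name. The labels do not say whether the RNA came from separate cultures, so the spread between the libraries may be partly technical.

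LIN28A and LIN28B are RNA-binding proteins of embryonic and germ cells that bind let-7 precursors and block their maturation. The let-7 microRNAs accumulate as cells differentiate and repress messages whose 3′ untranslated regions (3′ UTRs) pair with their seed, bases 2 to 8 of the microRNA. The messages of Lin28a, Lin28b, Trim71, the Igf2bp genes and Hmga2 are long-known let-7 targets, so let-7 and LIN28 form a loop of mutual repression. IGF2BP proteins bind and stabilise messages, TRIM71 is an RNA-binding ubiquitin ligase first known from worms as lin-41, HMGA proteins are architectural chromatin proteins that bind AT-rich DNA, and L1TD1 is an RNA-binding protein derived from the LINE-1 retrotransposon that works beside LIN28 in stem cells.

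The let-7 sequences are shown first because the family shares the seed that defines the axis. In the RefSeq table (GRCm38.p6), 10 of 11 mature let-7 family sequences carried the seed GAGGUAG, and let-7j differed in it. Mature sequences are written 5′ to 3′ with bases 2 to 8 in capitals, first those of let-7a, let-7g and miR-98 and then the exception:
mmu-let-7a-5p: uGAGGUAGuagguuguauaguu
mmu-let-7g-5p: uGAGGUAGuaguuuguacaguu
mmu-miR-98-5p: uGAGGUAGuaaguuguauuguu
mmu-let-7j: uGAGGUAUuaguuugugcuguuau

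LIN28 is known to recognise GGAG next to the terminal loop of let-7 precursors. The letters GGAG were found between the mature arms in 9 of 12 let-7 family hairpins, against 8.22% of the 645 mouse hairpins with both arms in the table, read on the RNA strand only. The hairpins of let-7g (chr9:106178840-106178927, + strand), which held them, and let-7b (chr15:85707319-85707403, + strand), which did not, are shown with GGAG in capitals; Mir98 and Mirlet7c-2 lacked the letters too:
Mirlet7g: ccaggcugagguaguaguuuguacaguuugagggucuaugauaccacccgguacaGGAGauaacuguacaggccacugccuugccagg
Mirlet7b: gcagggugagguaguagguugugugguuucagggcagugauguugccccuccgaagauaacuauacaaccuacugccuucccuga

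The reverse complement of the seed, CTACCTC, was searched on the message strand of the longest annotated 3′ UTR of each gene (GENCODE M21, GRCm38). It was present in 8 of the 9 members and in 10.1% of 21123 protein-coding genes with a 3′ UTR. Known targets of let-7 are among the members by choice, so this share is a description and no independent evidence. CTACCTCA, which also matches the adenine favoured opposite the first microRNA base, was present in 7 members and in 3.55% of genes. The members held 21 matches, 13 of them of the longer kind. At least 4 matches were found in 12 genes (0.0568%), and 4 of these were Lin28b, Trim71, Igf2bp1 and Hmga2. The first longer match of each member after the stop codon is shown over 23 bases, with the match in capitals (for Hmga1, which had only the shorter kind, that match):
Lin28a: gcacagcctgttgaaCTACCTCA
Lin28b: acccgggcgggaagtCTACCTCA
Trim71: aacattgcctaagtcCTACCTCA
Igf2bp1: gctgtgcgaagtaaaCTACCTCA
Igf2bp2: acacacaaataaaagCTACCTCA
Igf2bp3: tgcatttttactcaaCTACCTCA
Hmga1: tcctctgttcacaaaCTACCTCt
Hmga2: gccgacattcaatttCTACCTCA

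These windows lie on the minus strand at chr4:134005189-134005211 for Lin28a, chr10:45381022-45381044 for Lin28b, chr9:114512472-114512494 for Trim71 and chr11:95961778-95961800 for Igf2bp1. Those of Igf2bp2, Igf2bp3 and Hmga2, also on the minus strand, are at chr16:22059473-22059495, chr6:49086787-49086809 and chr10:120364224-120364246. The Hmga1 window is on the plus strand at chr17:27563277-27563299. L1td1 had no match in its 3′ UTR of 364 bases, the shortest of the 9 and below the median of 1085 bases over all genes. A map of the matches shows that those of Lin28b and Hmga2 begin close to the stop codon, at bases 36 and 58 of UTRs of 4445 and 3014 bases, while the first match of Igf2bp1 lies at base 1715 of 6337. Trim71 had its 4 matches in 2 close pairs, at bases 166 and 262 and at bases 3591 and 3617.

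**Figure D1:**
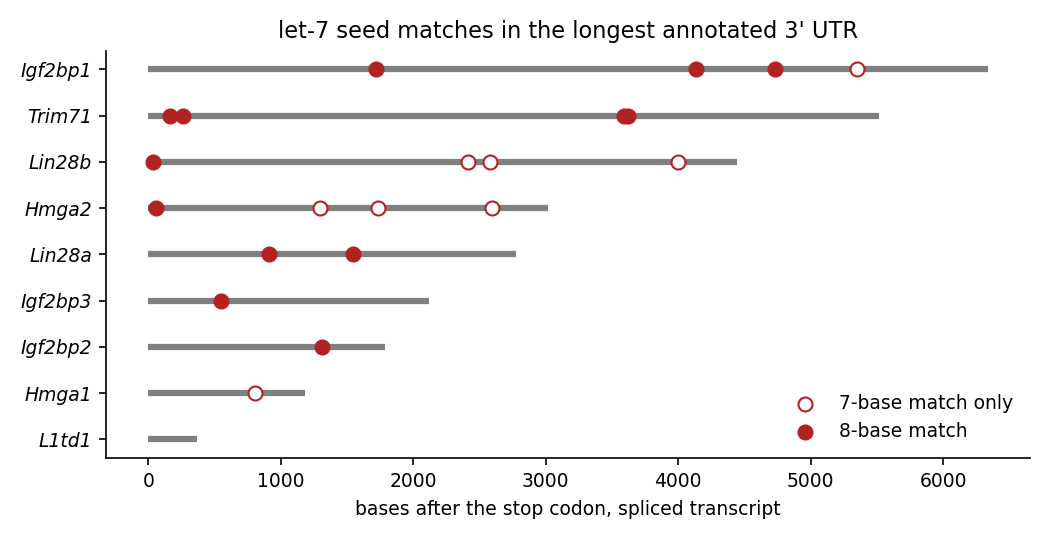
Positions of let-7 seed matches in the longest annotated 3′ UTR of each gene; the horizontal axis counts bases after the stop codon in the spliced transcript, grey bars are the UTRs, filled circles 8-base matches and open circles 7-base matches. Igf2bp1, Trim71, Lin28b and Hmga2 carry 4 matches each and L1td1 carries none.

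All 9 members were detected, that is, at 1 CPM (counts per 1000000 of the scaled library size) or more in both libraries, as were 29.8% of all genes and 54.0% of protein-coding genes. Library sizes were adjusted by the trimmed mean of M values (TMM), so that 1 CPM was worth 42.2 counts (P33) or 37.8 counts (P42). The median of the members' mean levels was 126 CPM, which is the mean of Igf2bp3. It was 88.1 CPM in the P33 library alone and 212 CPM in the P42 library alone. Over the 13737 genes whose mean reached 1 CPM the median was 22.2 CPM, but this contrast is not scaled for gene length. To compare levels between genes, CPM was divided by the length of the merged exons in kb. On that scale the members ranked from 142nd, L1td1, to 8826th, Hmga2, among 12960 detected genes with an exon length. Their order was L1td1, Lin28a, Igf2bp1, Trim71, Hmga1, Igf2bp3, Igf2bp2, Lin28b and Hmga2. The ranges of neighbours in this order overlapped between the libraries for Igf2bp1 and Trim71, for Hmga1 and Igf2bp3 and for Igf2bp3 and Igf2bp2, and did not overlap for the other neighbours.

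**Figure D2:**
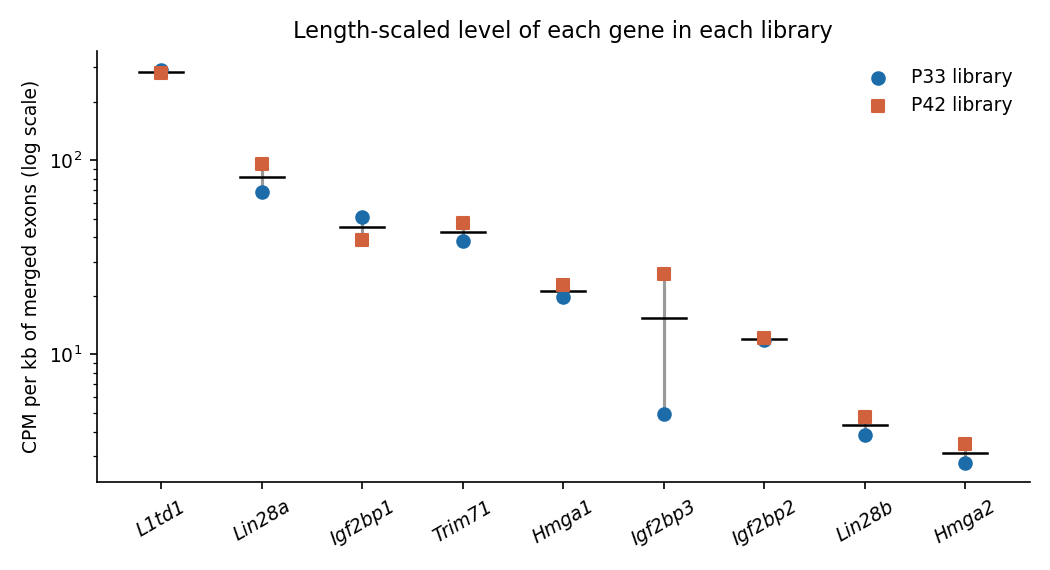
Level of each gene in CPM per kb of merged exons (log scale) in the P33 library (circles) and the P42 library (squares), with a bar at the mean of both. L1td1 stands highest at 290 and 281 CPM per kb, and Igf2bp3 shows the widest gap, 4.92 against 26.0 CPM per kb.

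Only 1 of the 9 genes, Igf2bp3, differed at least 2-fold between the libraries. To be counted, a gene needed a mean of 1 CPM or more, a gap of 2-fold or more between libraries and a log2 ratio whose exact 95% counting interval left out 0. This applied to 1 member higher and 0 lower, beside 5.07% of all genes higher and 9.54% lower, so the members' count says nothing particular about them. At a threshold of 1.5-fold the members' counts were again 1 and 0, beside 16.1% and 18.9% of all genes. With 1 library per age label there is no replicate check of any such difference and no p-value. The intervals treat reads as independent molecules and cover counting error only. The log2 ratio of P42 over P33 was above 0 for 7 members, with a median of 0.31, against 0.04 over all genes compared. Scaling by total counts instead of TMM lowers every ratio by 0.14. Igf2bp2, at 0.03, then stands at −0.11, so that 6 members remain above 0.

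**Figure D3:**
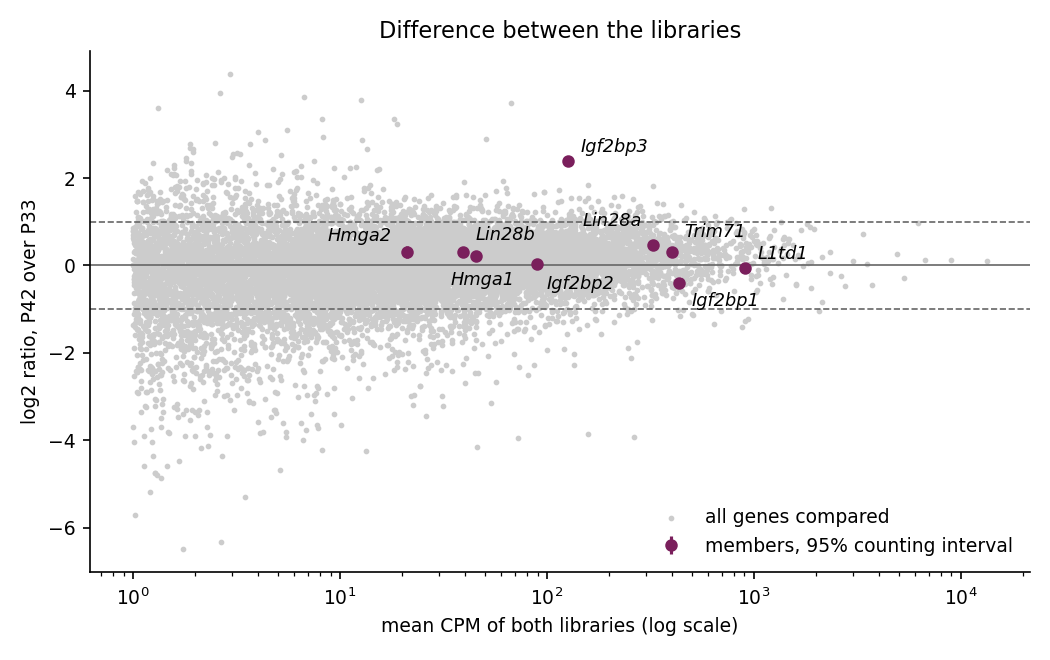
Log2 ratio of the P42 over the P33 library (vertical axis) against mean CPM of both libraries (log scale) for all genes compared (grey) and the 9 members (purple, with 95% counting intervals mostly hidden by the points); dashed lines mark 2-fold. Igf2bp3, at 2.399, is the only member outside the dashed lines.

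The LIN28 genes were unequal in level. Lin28a (ENSMUSG00000050966, chr4:134003330-134018841, mm10) had 11491 counts (P33) and 14350 counts (P42), or 273 and 380 CPM, a mean of 326 ± 75.9 CPM (SD, n = 2). Lin28b (ENSMUSG00000063804, chr10:45376620-45486395) had 1474 and 1633 counts, or 35.0 and 43.2 CPM, a mean of 39.1 ± 5.85 CPM (SD, n = 2). The P42 library was the higher for both, and within each library Lin28a lay far above Lin28b. Per kb of exon, Lin28a exceeded Lin28b 17.7-fold in P33 and 19.9-fold in P42, and it made up 94.6% and 95.2% of the pair. The log2 ratio of P42 over P33 was 0.48 (0.44 to 0.51, 95% counting interval) for Lin28a and 0.31 (0.20 to 0.41) for Lin28b. Neither reached 2-fold, and removing the trend of the ratio on GC content and exon length brought Lin28b to 0.11.

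L1td1 and Trim71, the RNA-binding partners in stem cells, were both abundant. L1td1 (ENSMUSG00000087166, chr4:98726734-98738480) had 38781 and 33628 counts, 920 (P33) and 890 CPM (P42), and a log2 ratio of −0.05 (−0.07 to −0.03). It ranked 100th by CPM among the 13017 genes detected in both libraries. Trim71 (ENSMUSG00000079259, chr9:114507133-114564369) had 15047 and 16736 counts, 357 (P33) and 443 CPM (P42), and a log2 ratio of 0.31 (0.28 to 0.34). L1td1 was thus nearly level between the libraries, and the Trim71 value was higher in P42 by less than 2-fold. Without the GC and length trend the ratios were −0.28 for L1td1 and 0.59 for Trim71, and with total-count scaling −0.19 and 0.17.

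The Igf2bp genes were the family whose makeup differed most between the libraries. Igf2bp1 (ENSMUSG00000013415, chr11:95957163-96005940) had 20878 counts (P33) and 14216 counts (P42), or 495 and 376 CPM, a mean of 436 ± 84.0 CPM (SD, n = 2). Igf2bp2 (ENSMUSG00000033581, chr16:22059009-22163299) had 3713 and 3397 counts, or 88.1 and 89.95 CPM, a mean of 89.0 ± 1.32 CPM (SD, n = 2). Igf2bp3 (ENSMUSG00000029814, chr6:49085223-49214957) had 1693 and 8000 counts, or 40.2 and 212 CPM, a mean of 126 ± 121 CPM (SD, n = 2). Igf2bp1 was the most abundant in both libraries, Igf2bp2 was nearly level, and Igf2bp3 was the lowest of the 3 in P33 and the middle one in P42. The log2 ratios of P42 over P33 were −0.40 (−0.43 to −0.37) for Igf2bp1, 0.03 (−0.04 to 0.10) for Igf2bp2 and 2.399 (2.32 to 2.48), or 5.27-fold, for Igf2bp3. The Igf2bp3 ratio ranked 30th from the top among 13737 genes. It remained 2.27 with the trend of the ratio on GC content and exon length removed and 2.26 with total-count scaling.

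Ratios taken within a library do not depend on how libraries are scaled. Igf2bp3 took 6.44% of the Igf2bp counts in P33 (6.15 to 6.74, exact 95% binomial interval) and 31.2% in P42 (30.7 to 31.8). Igf2bp1 took 79.4% and 55.5%, and Igf2bp2 14.1% and 13.3%. Per kb of exon, Igf2bp3 stood at 0.0962 of the Igf2bp1 level in P33 and at 0.668 in P42, a log2 change of 2.79 (2.71 to 2.88, counting error only). The sum of the 3 genes was 624 (P33) and 678 CPM (P42), a log2 ratio of 0.12 (0.10 to 0.15) that was −0.02 with total-count scaling. The family total therefore differed little, while the share of Igf2bp3 was larger in the P42 library and that of Igf2bp1 smaller. The Lin28 and Hmga pairs kept nearly the same shares, with Hmga1 at 87.7% and 86.9% of the Hmga pair per kb.

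**Figure D4:**
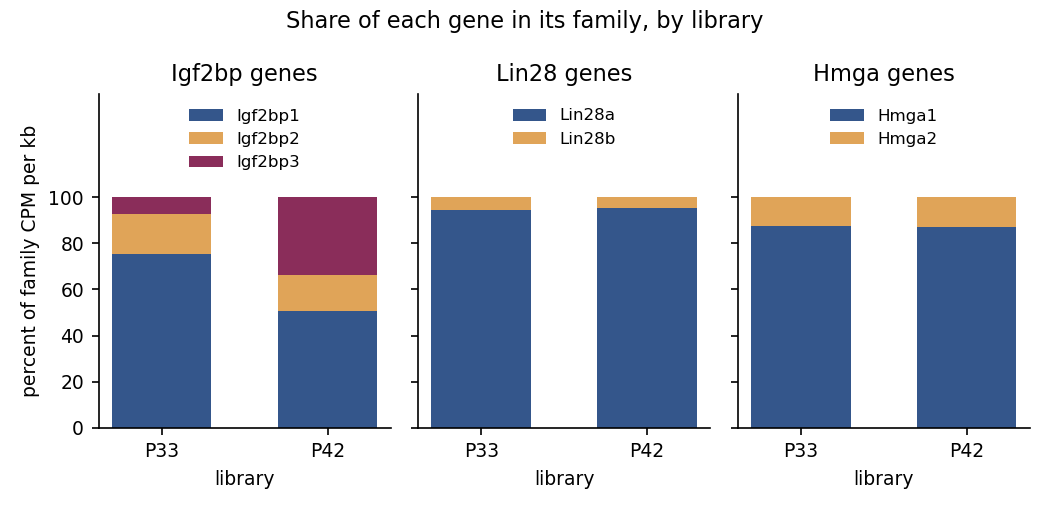
Share of each gene in its family's summed CPM per kb (vertical axis, percent) in the P33 and P42 libraries, for the Igf2bp, Lin28 and Hmga genes as counted, without Hmga1b. Igf2bp3 holds 7.24% in P33 and 33.7% in P42, while the Lin28 and Hmga bars look alike in both libraries.

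None of the genes around Igf2bp3 differed as much. The 17 compared genes within 1 Mb had log2 ratios between −0.94 and 1.00, with a median of 0.24, and the median of chromosome 6 was 0.05. Malsu1, a mitochondrial ribosome assembly gene, overlaps Igf2bp3 on the opposite strand by 1529 exonic bases. It stood at 21.4 (P33) and 26.1 CPM (P42), and its log2 ratio of 0.29 (0.16 to 0.42) was far from that of Igf2bp3. The labels name a reverse-stranded protocol, but the strand setting of the counting is not given in the sources used here. Markers of primitive endoderm, the extraembryonic lineage that separates from the epiblast in the blastocyst, moved in the same direction as Igf2bp3. All 7 listed markers were counted higher in P42, beside 5.07% of all genes, and their sum was 61.0 (P33) and 176 CPM (P42). The lists were chosen with earlier results of these data known, so this share is only a description. Of the 7, 6 were detected in both libraries, since Sox17 had 0.57 CPM in P33. The lineage factors Gata4 and Gata6 had 194 and 137 counts in P33 and 465 and 318 in P42. Of 8 pluripotency markers 2 were counted higher too, Klf4 at 1.83 and Sox2 at 1.03, and 0 lower, with Pou5f1 lowest at −0.67. Sox2 fell short of 2-fold with total-count scaling, at 0.89. The part of any of these markers in the Igf2bp3 difference was not tested. In RNA from a whole culture, a gene used more in all cells cannot be told apart from a larger share of cells that use it.

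Per kb of exon, Hmga2 had the lowest level of the 9 genes, and Hmga1 was the fifth in order. Hmga2 (ENSMUSG00000056758, chr10:120361275-120476469) had 789 and 880 counts, or 18.7 and 23.3 CPM, a mean of 21.0 ± 3.24 CPM (SD, n = 2) and a log2 ratio of 0.32 (0.18 to 0.46). Hmga1 (ENSMUSG00000046711, chr17:27556497-27563674) had 1761 and 1834 counts, or 41.8 and 48.6 CPM, a mean of 45.2 ± 4.80 CPM (SD, n = 2) and a log2 ratio of 0.22 (0.12 to 0.31). Both were a little higher in P42 and below 2-fold. Without the GC and length trend the ratios were 0.16 for Hmga2 and 0.68 for Hmga1, and with total-count scaling 0.17 and 0.08. The Hmga1 value is uncertain because of a near-identical gene, Hmga1b on chromosome 11, whose transcript was 99.8% identical over 1538 aligned bases. Hmga1b had more counts than Hmga1, 4409 in P33 and 2787 in P42, and a log2 ratio of −0.50 (−0.57 to −0.43). Counted together the 2 genes stood at 146 (P33) and 122 CPM (P42), a log2 ratio of −0.26 (−0.31 to −0.20). Per kb of exon they summed to 84.0 (P33) and 68.2 CPM (P42), against 19.7 and 22.9 CPM for Hmga1 alone. The direction, order and Hmga pair share given for Hmga1 thus depend on how reads were split between the copies. AI413582, opposite Hmga1 over 102 exonic bases, had 57 and 95 counts. For Hmga2 the antisense gene 1700006J14Rik shares 140 exonic bases and had 19 and 52 counts. Transcripts of Gm38158, Cox16 and Gm20498 matched that of Hmga2 over only 295 to 488 bases, at 92.4% to 94.6% identity. The matches of Cox16 and Gm20498 were in the opposite orientation. In P33 Gm38158, Cox16 and Gm20498 had 42, 38 and 9 counts. Malsu1 opposite Igf2bp3, named above, had 901 and 986 counts. The remaining genes overlapping other members had few counts. Gm13061 opposite Lin28a had 1 and 0, C130032M10Rik opposite Trim71 had 2 and 0, Gm29202 opposite Igf2bp1 had 13 and 9, and Mir3063 within Igf2bp1 had 0 in both. Gm48515, which matched L1td1 over 519 bases at 91.7% identity, and Gm49774, opposite Hmga1, are not analysed here.

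The let-7 precursor genes gave almost no counts. Of 12 listed genes 10 were in the tables, and 9 of them had 0 counts in both libraries, where 3 counts would correspond to 0.0712 (P33) and 0.0794 CPM (P42). Mirlet7g had 2 counts in P33 and 1 in P42. Poly(A) libraries do not capture mature microRNAs or their short hairpins, so these values say nothing about let-7 itself. Several hairpins lie inside longer genes of the same strand. Of these host genes, Huwe1 (Mirlet7f-2 and Mir98, intron) stood at 1230 (P33) and 835 CPM (P42), Wdr82 (Mirlet7g, intron) at 307 and 296 CPM, and Spaca6 (Mirlet7e, intron) at 6.24 and 5.40 CPM. The noncoding 6720427I07Rik, whose exons hold Mirlet7a-1, Mirlet7d and Mirlet7f-1, had 136 and 125 counts, or 3.23 and 3.31 CPM, level between the libraries within counting error, with a log2 ratio of 0.04 (−0.33 to 0.40). Mir99ahg, the host of Mirlet7c-1, had 0 counts in both, and 3110039I08Rik, around Mirlet7a-2, had 14 and 18. Hosts of Mirlet7b, Mirlet7c-2 and Mirlet7i are not analysed here.

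Factors that process let-7 or act with LIN28 in its decay were all expressed. All 13 listed genes were detected, with 1 counted higher and 1 lower, beside 5.07% and 9.54% of all genes. Their median log2 ratio was 0.10, against 0.04 over all genes compared. Drosha, the nuclear microRNA nuclease, stood at 345 (P33) and 340 CPM (P42). The LIN28-recruited uridylyl transferase genes Tut4, at 113 and 121 CPM, and Tut7, at 65.7 and 59.7 CPM, and the gene of the decay nuclease Dis3l2, at 20.5 and 29.8 CPM, did not reach 2-fold. Hnrnpa1, whose protein binds the let-7a precursor, was at 313 and 504 CPM. Msi1, an RNA-binding protein gene of neural progenitors, was counted higher at 8.78 and 21.8 CPM, a log2 ratio of 1.31 (1.14 to 1.49). Ago2, the effector nuclease of the microRNA complex, was counted lower at 612 and 300 CPM, with a ratio of −1.03 (−1.06 to −0.99). Without the GC and length trend it was −0.89, short of 2-fold. Ago2 lies on chromosome 15, where the median ratio was −0.57, and so do Drosha, at −0.02, and Hnrnpa1, at 0.69. A part of the chromosome in these ratios was not tested.

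Other known let-7 targets went both ways. Of 25 listed genes 24 had a mean of at least 1 CPM. Of these 24, 2 were counted higher and 3 lower, beside 5.07% and 9.54% of all genes. The median log2 ratio of the 24 was −0.07, against 0.04 over all genes compared. This list median was 0.05 without the GC and length trend. Among the most abundant were the GTPase gene Nras, at 199 (P33) and 255 CPM (P42), and the cell cycle phosphatase gene Cdc25a, at 131 and 155 CPM. Ccnd2 and Cdk6, a cyclin and a kinase of G1 phase, were counted higher at 1.44 (1.27 to 1.63) and 1.03 (0.86 to 1.21). Igdcc3, a cell surface protein gene, was counted lower at −2.18 (−2.57 to −1.82), as was the insulin signalling adaptor gene Irs2 at −1.42 (−1.89 to −0.98). With total-count scaling Cdk6 fell short of 2-fold, at 0.89. CTACCTC was present in the 3′ UTRs of 19 of the 25, beside 12.2% of compared protein-coding genes with a 3′ UTR. The 25 were listed as known targets, so this share too is only a description. Over all compared protein-coding genes the median log2 ratio was 0.03 for the 10646 without a match, 0.00 for the 1280 with 1 match and −0.10 for the 204 with at least 2, of which the 30 with at least 3 had a median of −0.14. Genes with more matches also had longer UTRs, with medians of 1238, 2310.5 and 3605.5 bases, and removing the GC and length trend brought the first 3 medians to 0.00, −0.01 and −0.01 and left that of the 30 genes at −0.18. Of these 30 genes 0% were counted higher and 16.7% lower, beside 4.76% and 9.49% of the genes without a match. The shares were 3.75% and 9.61% with 1 match and 2.94% and 12.7% with at least 2. The 30 genes are few and include members of the axis, and a part of let-7 in these shares was not tested.

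IGF2BP partners and client messages included the most abundant genes of the pathway lists. Of 12 listed, 11 were compared, and 0 were counted higher and 2 lower, beside 5.07% and 9.54% of all genes. The median log2 ratio was 0.07. Pabpc1, the poly(A)-binding protein gene, stood at 4271 (P33) and 3147 CPM (P42), Ybx1 at 1107 and 1166 CPM and the helicase gene Dhx9 at 910 and 1297 CPM. Hnrnpu, a nuclear RNA-binding protein gene, had the highest ratio at 0.91 (0.87 to 0.95), and both it and Dhx9 lie on chromosome 1, where the median was 0.66. Pabpc1 lies on chromosome 15. The growth factor message Igf2, which gave the family its name, was counted lower, at 13.5 and 1.77 CPM, a ratio of −2.92 (−3.32 to −2.56), and so was its imprinted neighbour H19 at −1.09 (−1.63 to −0.59), both at low levels. Without the GC and length trend the H19 value was −0.92, short of 2-fold.

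TRIM71 partners and targets had a median of −0.31 over 10 genes, with 0 counted higher and 3 lower, beside 5.07% and 9.54% of all genes. Without the GC and length trend the median was −0.13. These were Ago2, named above, the semaphorin receptor gene Plxnb2 at 136 (P33) and 46.9 CPM (P42), a ratio of −1.53 (−1.61 to −1.46), and the retinoblastoma-like gene Rbl2 at −1.06 (−1.27 to −0.86). Plxnb2, like Ago2, lies on chromosome 15. The immediate early gene Egr1 stood at 70.6 and 84.2 CPM. Inhbb, an activin subunit gene on chromosome 1, had the highest ratio at 0.64 (0.56 to 0.72), which was 1.17, past 2-fold, without the GC and length trend. The cell cycle inhibitor Cdkn1a, a message that TRIM71 is known to repress, stood at 53.0 and 43.8 CPM.

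Of the 8 other high mobility group genes, 2 were counted higher and 0 lower, beside 5.07% and 9.54% of all genes. Their median log2 ratio was 0.55, the highest of the pathway lists, and 0.40 without the GC and length trend. Hmgn1, a nucleosome-binding protein gene, was the most abundant at 466 (P33) and 730 CPM (P42). Hmgb1, a DNA-bending protein gene, was counted higher at 91.7 and 196 CPM, with a ratio of 1.10 (1.04 to 1.15). It fell short of 2-fold without the GC and length trend, at 0.78, and with total-count scaling, at 0.96. Hmgn3 was counted higher at 1.45 and 6.30 CPM, a ratio of 2.11 (1.71 to 2.55). Hmga1b had the lowest ratio. Genes of this group have many processed copies in the mouse genome, so their counts are uncertain. The plot of all lists places their medians beside that of all genes.

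**Figure D5:**
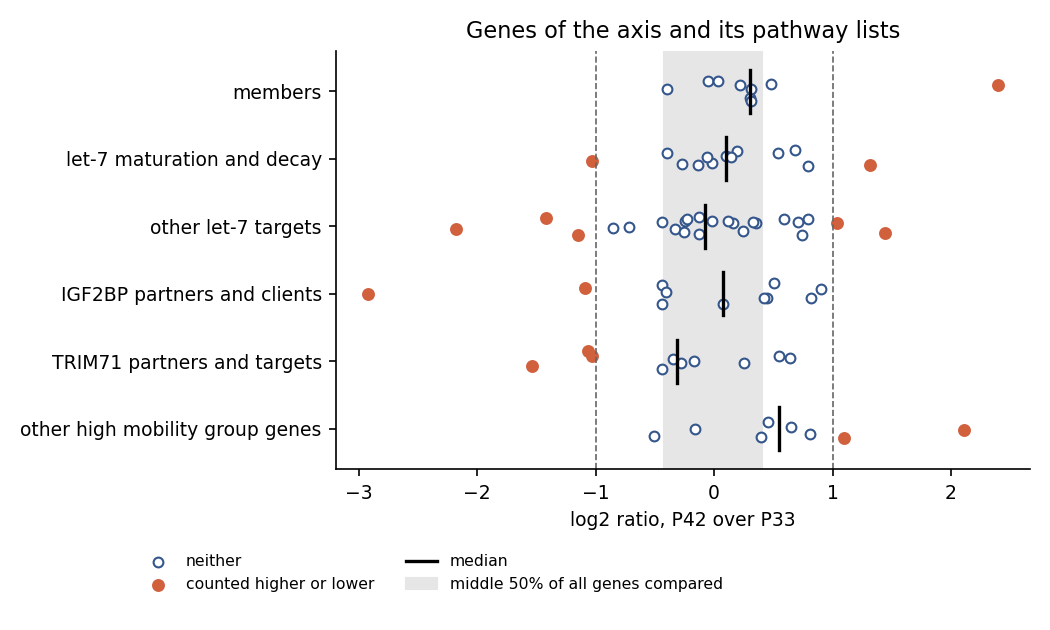
Log2 ratio of P42 over P33 (horizontal axis) for each compared gene of the members and of 5 pathway lists, with small vertical offsets for legibility; filled points were counted higher or lower, vertical bars are list medians, dashed lines mark 2-fold and the grey band holds the middle 50% of all genes compared. The medians run from −0.31 for TRIM71 partners and targets to 0.55 for the other high mobility group genes.

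The libraries held 40139219 counts (P33) and 39657578 counts (P42). All 8 pluripotency markers were detected in both, and of 6 markers each mesendoderm had 1 detected, neuroectoderm 4 and fibroblast 3. Of 7 markers each, 3 were detected for trophectoderm and 6 for the primed epiblast. Summed levels in P33 and P42 were 5370 and 6308 CPM for pluripotency, 444 and 187 CPM for the primed epiblast, 72.5 and 53.1 CPM for trophectoderm, 4.03 and 8.58 CPM for mesendoderm, 55.9 and 65.0 CPM for neuroectoderm and 42.1 and 33.2 CPM for fibroblast markers. Most of the primed epiblast sum was Dnmt3b, a DNA methyltransferase gene counted lower, at 387 and 105 CPM. The other primed markers summed to 57.3 and 81.6 CPM, with Sox4 counted higher. Of the trophectoderm markers Tfap2c stood at 35.8 and 39.5 CPM and the others summed to 36.7 and 13.6 CPM. Of 5 compared, 3 were counted lower, Krt7, Krt8 and Ascl2, beside 9.54% of all genes. Krt7 and Ascl2 had only 0.58 and 0.64 CPM in P42. Krt7 and Krt8 lie on chromosome 15, like Krt18, with a log2 ratio of −0.84, and the primitive endoderm marker Dab2, at 1.91. The part of these lineage markers in the members' differences was not tested.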

How the data were processed

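The tables deposited by the authors, 1 per library, hold raw counts as whole numbers for each Ensembl gene, judged from the values. Per the submitters' processing notes, STAR 2.4.2a, featureCounts 1.4.5-p1 and mm10 were used; which annotation release was counted, and how strand and multiply mapped reads were treated, is not given in the sources used here. Symbols, coordinates, merged exon lengths and 3′ UTRs came from GENCODE M21 (GRCm38, the assembly of mm10), which matched 42548 of 43629 identifiers; promoters and microRNAs came from RefSeq. Library sizes were scaled with TMM (edgeR 4.0.16; factors 1.05 and 0.952). The log2 ratio used a prior count of 0.5 and an exact Clopper-Pearson 95% counting interval. Near-identical copies were searched with BLAST 2.17.0 (90% identity, 150 bases). The ratio script was tested on simulated counts. Other settings tried were size factors from DESeq2 1.42.0, plain totals, other thresholds and a lowess trend on GC content and length (span 0.3, statsmodels 0.14.6). Named were all members and, per list, the 3 most abundant genes, the highest and lowest ratios and every gene counted; others, including the let-7 host genes, were added later. Members and lists were chosen with earlier results of these data known. Some genes that the naming rule covers are not reported here.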

Additional observations from a re-analysis of the deposited data

How the results depend on the processing

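Igf2bp3 alone among the members was counted, and 0 members were counted lower, under DESeq2 size factors, total counts, removal of the GC and length trend, 1.5-fold and 3-fold thresholds, no filter on low counts and a mean of at least 10 CPM; its log2 ratio ran from 2.26 to 2.399. The members' median ratio of 0.31 was 0.17 with total counts and 0.16 with the trend removed; the cause was not tested. The pathway lists held 76 genes besides the members, including those below a mean of 1 CPM. Of these, 5 were counted higher, and 3 with total counts, where Cdk6 and Hmgb1 fell below 2-fold, beside 5.07% and 3.39% of all genes. Those counted lower numbered 8 in both settings, beside 9.54% and 12.1% of all genes. With no filter on low counts 10 were lower, beside 9.74%. The members' median level was 88.1 CPM in the P33 library alone and 212 CPM in the P42 library alone, with all 9 members detected in each. Of 37 single-gene ratios under alternatives 19 stayed inside the counting interval. These came from DESeq2 size factors and a prior count of 2, apart from Igf2bp2 with the trend removed. With total counts every member ratio left its interval, and with the trend removed every one except that of Igf2bp2. The opposite sign was seen for 2, Igf2bp2 with total counts at −0.11 and Hmga1 counted with Hmga1b at −0.26. Counting Hmga1 with Hmga1b was an alternative added after the data were seen. No paired analysis was possible because the study has 1 group. With 1 library per age label, depth limits only the counting error, and the spread between cultures of the same label is unknown.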

Other observations

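RefSeq promoters (GRCm38.p6), 250 bases before to 50 after each start, were found for 8 of the 9 members, and Igf2bp1 was the member without an entry. CpG dinucleotides numbered from 8 for Lin28b and 10 for Lin28a to 47 for Igf2bp2, with 25 for Igf2bp3, against a median of 7 over all 32851 promoters. The Lin28b promoter, chr10:45470152-45470451, lies inside the GENCODE gene and not at its 5′ end, chr10:45486395 on the minus strand. The E-box letters CACGTG, searched on both strands, were present for Igf2bp3 and Lin28b and in 7.15% of all promoters. The octamer letters ATGCAAAT, searched on both strands, were present for Hmga1 at each of its starts and in 1.74% of all promoters. TATAAA, on either strand, was in none of the 8 and in 13.6% of all promoters. These are matches of letters and not measured sites.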
